A study of Mus musculus with 31 samples.

Results

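A group of 10 myeloid and granulocyte genes is described here in Dll1 mutant mice: Lyz2, Plac8, S100a8, S100a9, Csf1r, Cd68, Ctss, Tyrobp, Fcer1g and Mpo. They were taken by name from a cDNA array of 20794 rows, of which 12760 carried the name of 1 gene (9026 genes). Of the 10 genes, 8 had a row, in 12 rows altogether, while Csf1r and Cd68 had none among the named rows. The genes were in part selected on their spleen ratios, since Lyz2 and Plac8 were among the rows with the smallest p there. Spleen is therefore described without a test, and tests are given for brain, liver and thymus.

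RNA of single male Dll1 mutant mice, 17 weeks old, was hybridised with a pool of wild-type male RNA of the same organ, from animals of 18 weeks, with 20 µg of RNA per labelling. Brain, liver, spleen and thymus came from the same 4 mutant mice, called mice 1 to 4. Each mouse and organ had 2 arrays with the dyes Cy3 and Cy5 swapped, except thymus of mouse 2, which had only the array with the mutant RNA in Cy5 (31 arrays, 8 for brain, liver and spleen each and 7 for thymus). The sample labels give neither the allele nor the zygosity, and the paper describes heterozygous carriers of a lacZ insertion in Dll1, so the mice are called Dll1 mutants. Each pool is 1 control sample, and the spread among wild-type animals is not part of any value. A dual-colour array gives a ratio and no level, so the labelled organ could not be checked against the level of its marker genes.

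All values are log2 ratios, where 1 is a doubling and -1 a halving. Their direction is not stated. Mutant over pool is taken as the likely one, on the labels and the study and not on the ratios themselves. The labels list the mutant RNA as the first channel on every array. The study presents its ratios as mutant against wild type. Read as pool over mutant, every sign below would turn. Read as Cy5 over Cy3, the mean spleen ratios of Lyz2, Plac8 and Ctss, which are negative below, would lie between 0.16 and 0.72. Dye-swapped arrays of the same mouse had median correlations of -0.103 in brain, -0.087 in liver, -0.008 in spleen and 0.059 in thymus. Different mice with the mutant RNA in Cy3 had 0.386, 0.095, 0.202 and 0.050 in these organs. Those with it in Cy5 had 0.048, 0.058, 0.040 and 0.070. On the Cy5 over Cy3 reading, only the dye-swapped correlations would change sign. What sets their sign was not tested. Gene names rest on a displacement of 11 places between the row number and the probe number, which no source states. With it, rows of the same gene had a mean correlation of 0.0381 within an array over 5048 pairs of rows, against 0.0049 with no displacement and at most 0.0111 at the others of 601 displacements. Between 12693 and 20649 rows had a value on an array, with a median of 20312. Mouse 1 in spleen stood apart, its arrays having 39.0% and 26.2% of rows empty and medians of 0.708 (mutant in Cy5) and 0.098. The other arrays had medians from -0.052 to 0.214. Among them, the brain array of mouse 4 with the mutant RNA in Cy5 had 22.3% of rows empty. The targeted gene did not serve as a check of the labels. Dll1 had means from -0.85 (thymus) to 1.40 (liver, 1 mouse) in row 16 and from -0.57 (spleen) to -0.09 (thymus) in row 20300. That row is in the last 5% of the table, where the names are less certain, and whether the spotted cDNAs lie in the disrupted part of the gene is not known.

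Myeloid cells are the granulocytes, monocytes and macrophages. Neutrophils store peroxidase, proteases and antimicrobial proteins in granules. Macrophages settle in every organ, as red pulp macrophages in spleen, Kupffer cells in liver and microglia in brain. Dll1 is a ligand of the Notch receptors. In mouse spleen it is required for marginal zone B cells, and Notch signalling also acts in the formation of splenic dendritic cells. The members include secreted and granule proteins (Lyz2, Mpo), cytosolic proteins of neutrophils (S100a8, S100a9), a lysosomal protease (Ctss) and signalling adaptors (Tyrobp, Fcer1g). The others are the receptor for macrophage colony-stimulating factor (Csf1r), a macrophage endosomal glycoprotein (Cd68) and Plac8, a small cysteine-rich protein found in myeloid and lymphoid cells.

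A set of 3 genes was low together in spleen, namely Lyz2 (in both of its rows), Plac8 and Ctss, and their promoters are shown for that reason, with S100a8, which was not low there, for comparison. Each sequence runs 5′ to 3′ on the strand of the gene and was taken from RefSeq for the build GRCm38.p6. The windows of Lyz2, Ctss and S100a8 run from 250 bases before the start of the gene to 50 after it. That of Plac8 has the same length, but the first base of the gene (chr5:100572253) lies at another place within it. Promoters were found there for 7 of the 8 genes with a row. Plac8 had 2, and the upstream one is printed. Capitals mark GAGGAA or its reverse complement TTCCTC, a form of the site of PU.1, a transcription factor of myeloid and B cells. Shorter forms of the site were not searched for.
Lyz2, chr10:117282223-117282522, minus strand: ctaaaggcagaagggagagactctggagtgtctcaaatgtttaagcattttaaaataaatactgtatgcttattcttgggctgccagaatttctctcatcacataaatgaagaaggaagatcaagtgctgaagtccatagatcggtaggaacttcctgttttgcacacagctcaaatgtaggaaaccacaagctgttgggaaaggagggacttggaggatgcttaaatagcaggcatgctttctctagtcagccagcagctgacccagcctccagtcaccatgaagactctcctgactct
Plac8, chr5:100572156-100572455, minus strand: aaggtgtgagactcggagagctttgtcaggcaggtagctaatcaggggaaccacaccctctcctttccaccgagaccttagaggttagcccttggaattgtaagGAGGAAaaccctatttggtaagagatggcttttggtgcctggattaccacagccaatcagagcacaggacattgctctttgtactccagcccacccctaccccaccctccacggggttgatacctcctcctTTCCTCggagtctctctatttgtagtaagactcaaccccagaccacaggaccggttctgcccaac
Ctss, chr3:95526536-95526835, plus strand: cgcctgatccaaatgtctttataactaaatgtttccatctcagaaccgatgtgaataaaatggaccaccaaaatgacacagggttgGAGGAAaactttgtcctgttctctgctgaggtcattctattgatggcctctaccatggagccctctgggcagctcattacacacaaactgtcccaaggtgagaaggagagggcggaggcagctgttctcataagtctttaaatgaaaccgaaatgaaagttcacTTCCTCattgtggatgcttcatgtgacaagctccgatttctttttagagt
S100a8, chr3:90668821-90669120, plus strand: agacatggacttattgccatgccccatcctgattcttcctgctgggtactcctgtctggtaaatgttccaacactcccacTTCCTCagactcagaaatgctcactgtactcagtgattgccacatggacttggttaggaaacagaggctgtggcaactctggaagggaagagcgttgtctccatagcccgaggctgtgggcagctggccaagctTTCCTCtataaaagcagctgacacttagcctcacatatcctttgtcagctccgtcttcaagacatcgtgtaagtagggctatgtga
GAGGAA was present on either strand in 28.28% of 32851 mouse promoters of this length. It occurred 2 times each in the windows of Plac8, Ctss, S100a8 and Mpo and in none of those of Lyz2, S100a9 and Fcer1g. The longer GAGGAAGT, which contains it, was present in 3.20% of promoters and occurred in Ctss, S100a8 and Mpo. TTGCNNAA, a form of the C/EBP site (both strands), was present in 10.80% and occurred in S100a9 and in the second promoter of Plac8. The 3 genes low in spleen thus had no one of these motifs in common, and S100a8 had the same matches as Ctss. A match is a description of the letters only.

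Lyz2 encodes the lysozyme of macrophages and neutrophils, which cleaves bacterial cell walls. The gene lies at chr10:117277541-117282272 (GRCm38.p6) and had 2 rows, 12301 and 17282 of the deposited table. In spleen, row 17282 was -1.27 in mouse 1, -1.27 in mouse 2, -1.28 in mouse 3 and -1.24 in mouse 4 (mean -1.26, SD 0.02, n = 4, 2.40-fold lower than the pool). Row 12301 was -1.15, -1.26, -0.76 and -0.95 in mice 1 to 4 (mean -1.03, SD 0.22, n = 4). All 4 mice were thus low in both rows, and all 8 arrays of each row were below 0. The size depended on the dye. In row 17282 the arrays with the mutant RNA in Cy5 read -0.61, -0.64, -0.41 and -0.50 in mice 1 to 4 (mean -0.54), and those with it in Cy3 read -1.93, -1.90, -2.16 and -1.98 (mean -1.99). Lyz1, a close copy of Lyz2, had no named row, and whether the spotted cDNAs bind its transcript was not tested.

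Plac8 (row 4323, chr5:100551589-100572253) was also low in every spleen, with -1.25, -1.24, -1.44 and -0.93 in mice 1 to 4 (mean -1.21, SD 0.21, n = 4, 2.32-fold lower). Its 2 dye orientations were closer, -1.01 with the mutant RNA in Cy5 and -1.42 in Cy3. Ctss, cathepsin S, a protease that processes the invariant chain in antigen presenting cells, lies at chr3:95526786-95556405 (row 4825). Its values in spleen were -0.99, -1.20, -0.92 and -0.80 (mean -0.98, SD 0.17, n = 4, 1.97-fold lower). As for Lyz2 and Plac8, all 8 arrays were below 0.

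These 4 rows lay at the low end of the spleen ratios. Of all spleen rows, 0.10% had a lower mean than Lyz2 row 17282, 0.12% than Plac8, 0.29% than Lyz2 row 12301 and 0.43% than Ctss. They were the 4 of 11 member rows below 0 in every mouse, where 13.0% of all rows were so. Of rows with a value on every spleen array, 2.74% were below 0 on every one. The choice of the genes used these ratios, so the counts describe the genes and carry no test. Without mouse 1 the means of these 4 rows were -1.26 to -0.97, and without mouse 1 and with each array centred on its median they were -1.30 to -1.01.

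The remaining members did not share this in spleen. S100a8 and S100a9 encode the subunits of calprotectin, the most abundant cytosolic protein complex of neutrophils. S100a8 (row 2694) was 0.11, 0.54, -0.02 and -0.03 in mice 1 to 4. S100a9 row 4889 was 0.20, 0.10, 0.26 and 0.08 (mean 0.16, SD 0.08, n = 4), while its other row, 18858, was -1.91 in mouse 1 and -0.01, 0.42 and 0.04 in the others. There were 3 member rows above 0 in every mouse with a value, against 18.0% of all spleen rows, namely S100a9 row 4889 and Mpo rows 4891 and 4938.

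Mpo, the myeloperoxidase of neutrophil granules, had 3 rows. Over the spleen arrays their correlations in pairs were 0.903 (rows 4149 and 4891), 0.643 (4149 and 4938) and -0.073 (4891 and 4938). Row 4938 was 1.25, 0.99, 0.57 and 0.21 in mice 1 to 4 (mean 0.76, SD 0.46, n = 4). Row 4149 was 0.58, -0.54 and -0.53 in mice 2 to 4, and row 4891 was 0.45, 0.23 and 0.01. Mouse 1 had no value in these 2 rows, because 1 of its arrays gave none. Its other array read 2.71 in row 4149 (mutant in Cy5) and -0.54 in row 4891 (mutant in Cy3). Fcer1g, the common gamma chain of activating Fc receptors, was 1.23 in mouse 1 and -0.47, -0.15 and -0.13 in mice 2 to 4, so that its mean of 0.12 (SD 0.76, n = 4) rested on mouse 1.

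Tyrobp, which encodes the adaptor DAP12 of myeloid and natural killer cells, could not be followed. Its row (15559) had values on only 11 of the 31 arrays, 3 in brain, 3 in liver, 2 in spleen and 3 in thymus. Both arrays of a mouse gave a value only in brain of mouse 2, where they were 3.68 (mutant in Cy5) and -1.36 (mutant in Cy3). The 2 spleen arrays with a value read 0.31 in mouse 3 and 0.28 in mouse 4. The 11 rows of the other 7 genes had a value in at least 3 mice in every organ and passed the filter for the tests.

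**Figure D1:**
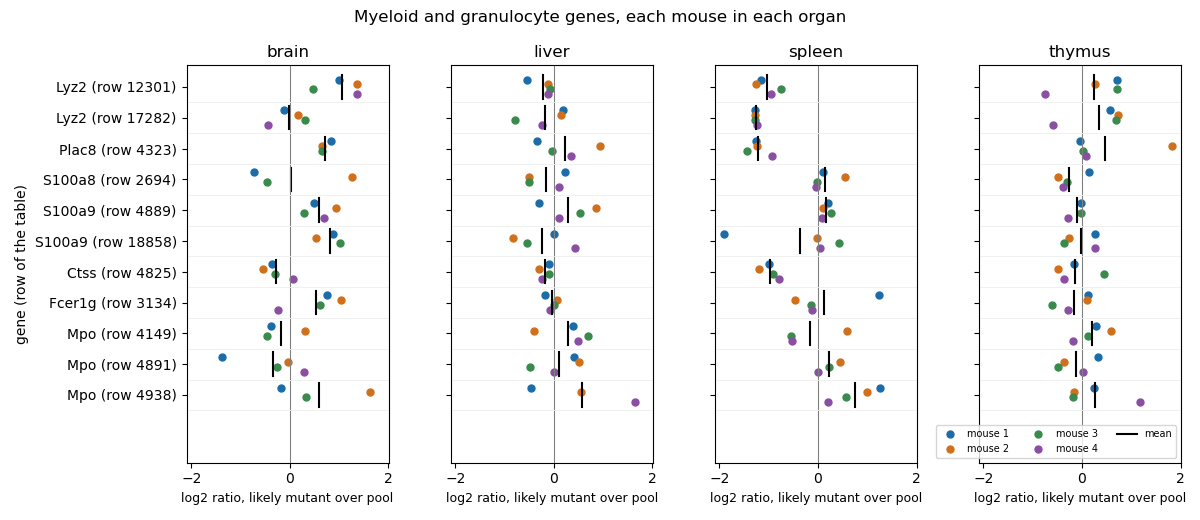
Log2 ratios (horizontal axis, likely mutant over pool) of the 11 rows with enough values (vertical axis) in the 4 organs, with 1 point per mouse (its 2 arrays averaged) and a black line at the mean. In spleen both Lyz2 rows, Plac8 and Ctss lie below 0 in every mouse, with means from -1.26 to -0.98. In thymus mouse 4 lies below 0 in both Lyz2 rows, where the other mice lie above it.

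In brain, liver and thymus no member row passed the limma test at an adjusted p of 0.05, nor did any other row (0.00% of 19102 rows in brain, 0.00% of 19973 in liver and 0.00% of 20185 in thymus). At an unadjusted p of 0.05, 2234 rows passed in brain, 896 in liver and 631 in thymus. The fit over all rows called 0 of 19591 rows in spleen too (2091 at an unadjusted p of 0.05), so this test does not set the organs apart. The smallest adjusted p of a member row was 0.42 in brain, 0.921 in liver and 0.86 in thymus. Under other settings a member row passed only in brain, with the arrays of mutant RNA in Cy3 alone, where S100a9 row 18858 had a mean of 1.51 (adjusted p = 0.044, limma) and 1433 of 20546 rows passed.

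In thymus, where Notch signalling directs T cell commitment, the 2 Lyz2 rows went together across the mice. Row 12301 was 0.71, 0.27, 0.72 and -0.75 in mice 1 to 4. Row 17282 was 0.56, 0.74, 0.69 and -0.59. In both rows mouse 4 was low and the other mice were high, and both arrays of mouse 4 were below 0 in each row (-0.72 and -0.78, and -0.33 and -0.85). The means, 0.24 (SD 0.69) and 0.35 (SD 0.63), were smaller than this spread. The median of the T cell list by mouse was -0.34, 0.17, -0.21 and 0.38, highest in mouse 4, and its part in the Lyz2 values was not tested.

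Plac8 in thymus was -0.04, 0.02 and 0.09 in mice 1, 3 and 4 and 1.82 in mouse 2. The value of mouse 2 comes from its lone array (1.97) after a correction for the dye. S100a8 was 0.15, -0.49, -0.31 and -0.38, and S100a9 row 4889 was below 0 in the 3 mice with a value (-0.03, -0.02 and -0.28), as were 8.08% of all thymus rows in every mouse with a value. No member row was above 0 in every mouse, against 6.45% of all rows. Ctss was -0.16, -0.48, 0.44 and -0.37, and Fcer1g was 0.12, 0.11, -0.60 and -0.29. The Mpo rows had means of 0.20 (SD 0.32), -0.13 (SD 0.37) and 0.27 (SD 0.64), the last with 1.18 in mouse 4, where the 2 arrays read 3.42 and -1.06. The median of the 11 member rows was -0.02. Below 0 on every thymus array were 1.01% of rows and none of the members.

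In liver, whose resident macrophages are the Kupffer cells, the members lay near 0, with a median of -0.05 over the 11 rows. Ctss was -0.10, -0.30, -0.10 and -0.25 in mice 1 to 4, and Lyz2 row 12301 was -0.54, -0.11, -0.08 and -0.12. Both were below 0 in every mouse, as were 6.20% of all liver rows, but each had 1 of 8 arrays above 0 (0.302% of rows were below 0 on every array). Lyz2 row 17282 did not follow, with 0.18, 0.14, -0.78 and -0.25. Plac8 was -0.35, 0.93, -0.03 and 0.34.

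Among the other members in liver, S100a8 was 0.23, -0.50, -0.51 and 0.11. S100a9 was -0.31, 0.85, 0.53 and 0.11 in row 4889 and 0.01, -0.84, -0.55 and 0.42 in row 18858, so that mouse 2 was the highest in one row and the lowest in the other. The Mpo rows had means of 0.29 (SD 0.48), 0.11 (SD 0.45) and 0.57 (SD 1.06, n = 3). Fcer1g had a mean of -0.05 (SD 0.11, n = 4). No member row was above 0 in every mouse, against 8.09% of all rows.

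In brain 4 member rows were above 0 in every mouse with a value, where 14.6% of all rows were so, and none was below 0 in every mouse (14.8% of all rows). Lyz2 row 12301 was 0.99, 1.36, 0.48 and 1.37 in mice 1 to 4 (mean 1.05, SD 0.42, n = 4). Plac8 was 0.84, 0.66 and 0.66 in mice 1 to 3 (mean 0.72, SD 0.10, n = 3). In mouse 4 only its array with the mutant RNA in Cy3 gave a value, -0.40. With lone array values kept, the mean of Plac8 was 0.44. S100a9 was 0.50, 0.93, 0.28 and 0.69 in row 4889 and 0.88, 0.53 and 1.01 in row 18858. In mouse 4, row 18858 likewise had a value only with the mutant RNA in Cy3, 2.00. The same 4 rows had an unadjusted p under 0.05, as had 11.70% of all brain rows, and none passed after adjustment over the organ (adjusted p = 0.42, limma).

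The other brain values were mixed. Lyz2 row 17282 was -0.11, 0.17, 0.30 and -0.44, unlike the other row of the gene. Fcer1g was 0.76, 1.04, 0.61 and -0.25, and Ctss was -0.36, -0.55, -0.31 and 0.06. S100a8 was 1.26 in mouse 2 and -0.72 and -0.46 in mice 1 and 3. The Mpo rows had means of -0.18 (SD 0.42, n = 3), -0.35 (SD 0.73, n = 4) and 0.60 (SD 0.93, n = 3).

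The dyes bore on the brain values. Lyz2 row 12301 had a mean of 2.06 with the mutant RNA in Cy5 and 0.04 in Cy3, and Plac8 had 1.60 and -0.22. S100a9 row 18858 went the other way, with 0.26 in Cy5 and 1.51 in Cy3. S100a8 had -1.23 in Cy5 and 1.45 in Cy3, and Mpo row 4891 had -1.37 and 0.68. The median size of the difference between the orientations was 1.36 over the 11 member rows and 0.65 over all brain rows. The sign differed between the orientations in 6 of 11 member rows in brain (55.9% of all rows), 6 in liver (60.7%), 4 in thymus (51.7%) and 2 in spleen (48.4%). None of the brain members was below 0 on every array, against 1.32% of rows. On the 4 Cy5 arrays of brain the names had no backing, with correlations of rows of the same gene from -0.015 to 0.002, while the 4 Cy3 arrays gave 0.090 to 0.127. In liver they were -0.011 to 0.004 (Cy5) and -0.011 to 0.041 (Cy3), in thymus 0.021 to 0.084 and -0.005 to 0.055, and in spleen 0.012 to 0.033 and 0.033 to 0.125.

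**Figure D2:**
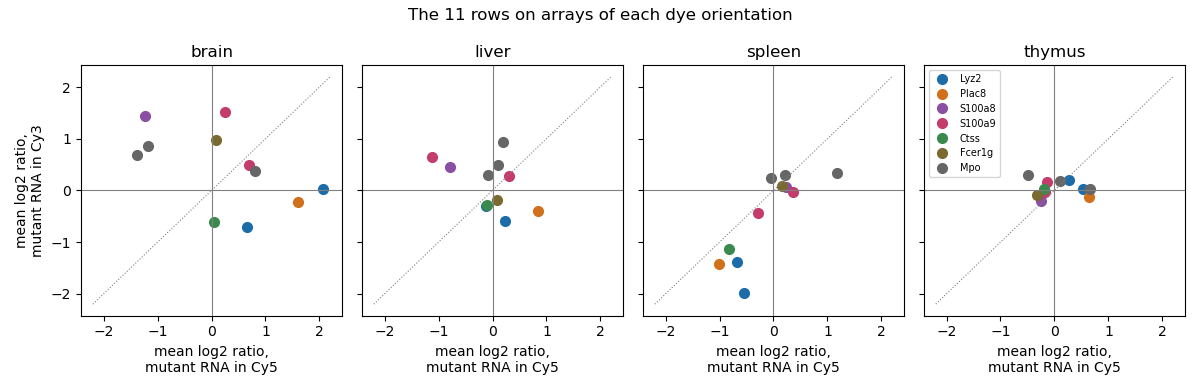
Mean log2 ratio of each of the 11 rows over the arrays with the mutant RNA in Cy5 (horizontal axis) and in Cy3 (vertical axis), by organ, coloured by gene, with a dotted line where both are equal. In spleen the Lyz2, Plac8 and Ctss points lie in the lower left part, from -0.54 to -1.01 in Cy5 and from -1.14 to -1.99 in Cy3. In brain 6 of the 11 points lie where the signs differ, as do Lyz2 row 17282 (0.66 and -0.70) and S100a8 (-1.23 and 1.45).

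Whether the ratios differed between organs was tested for brain, liver and thymus, with spleen left out because it chose the genes. No row passed in any comparison of organs (0.00% of 19725 rows in thymus against liver, 0.00% of 18889 in thymus against brain and 0.00% of 18722 in brain against liver). At an unadjusted p of 0.05, 824, 2016 and 1605 rows passed. Among the members, Lyz2 row 12301 was higher in brain than in liver by 1.26 (SE 0.27, adjusted p = 0.579, limma). S100a9 row 18858 was lower in thymus than in brain by 0.83 (difference -0.83, SE 0.28, adjusted p = 0.457). In thymus against liver, the largest difference was 0.53 for Lyz2 row 17282 (SE 0.34, adjusted p = 0.911). None of these differences is thus shown, and each organ had a pool of its own.

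Genes with several rows allow the rows to be compared. The 2 Lyz2 rows had a Pearson correlation of 0.685 over the 31 arrays. By organ it was 0.877 in thymus (7 arrays), 0.727 in brain, 0.528 in spleen and -0.131 in liver (8 arrays each). Over the 16 pairs of mouse and organ it was 0.682, the 15th highest among 4035 rows set against row 12301. The spleen values, on which Lyz2 was in part selected, are among the 31 arrays and the 16 pairs and are low in both rows. The rank is therefore no check of the rows. The 2 S100a9 rows had -0.164 over 29 arrays, and the 3 Mpo rows had 0.558, 0.221 and 0.017 in pairs over 26 to 28 arrays. The arrays share organs, pools and dyes, so these correlations are descriptions, with no p.

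**Figure D3:**
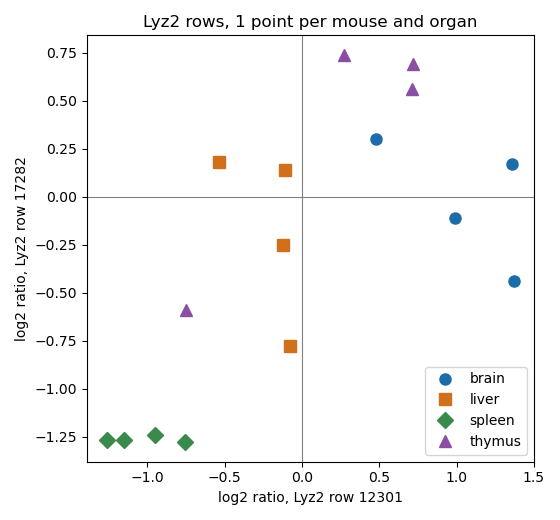
Log2 ratios of Lyz2 row 12301 (horizontal axis) and row 17282 (vertical axis), 1 point per mouse and organ, with the organs by colour and shape. The 4 spleen points lie together at the lower left, near -1.03 and -1.26 on average. The thymus points of mice 1 to 3 lie at the upper right, with mouse 4 below 0 in both rows.

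By the same measure the named rows most like Lyz2 row 12301 over the 16 pairs of mouse and organ were Pou2af1 (r = 0.830), a coactivator of B cells, Ccl21a (r = 0.807), a chemokine of lymphoid stroma, and Tm6sf2 (r = 0.770). Pou2af1 had means of 0.77 in brain, 0.03 in liver, -0.81 in spleen and 0.17 in thymus, and Ccl21a had 0.46, -0.27, -0.87 and 0.10. Those most like Plac8 over its 15 pairs were Usp2 (r = 0.843), Fstl1 (r = 0.834) and Grik4 (r = 0.831). The row of Usp2 is among the last 5% of the table, where rows of the same gene had a mean correlation of -0.0035 (505 pairs) and the names are less certain. No member row lies there. Between members, Plac8 correlated at 0.705 and 0.791 with the Lyz2 rows, and Ctss at 0.638 and 0.691. S100a8 had -0.011 and -0.152 with the Lyz2 rows. The points share arrays and pools, and the spleen mice weigh heavily in them.

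Lists of related genes and of other cell types were set beside the members, with the rows of a gene averaged and only genes with a value in all 4 mice counted. Each bracket gives the genes below 0 in all 4 mice, the genes counted and the median log2 ratio. In spleen the lists were neutrophil granule and granulocyte (3 of 8, -0.03), monocyte and macrophage (4 of 18, -0.07), adaptors with activation motifs and their partners (2 of 6, -0.32), colony-stimulating factors and their receptors (0 of 6, -0.14), phagocyte oxidase and peroxidase (2 of 5, -0.35), lysosome and cathepsins (4 of 10, -0.33) and the S100 family (4 of 7, -0.36). Over all 4882 named genes counted in spleen, 13.99% were below 0 in all 4 mice and the median was 0.05. The lowest was S100a6 (-1.26, SD 1.53), an S100 protein also held by the neutrophil list, on -3.55 in mouse 1 against -0.61 to -0.39 in the others. Other low genes included S100a11 (-0.84, SD 0.37), Cst3, the inhibitor cystatin C of cathepsins (-0.81, SD 0.21), and Fcgr2b, the inhibitory Fc receptor (-0.70, SD 0.14). Rac2, a GTPase of the phagocyte oxidase (-0.63, SD 0.28), and Plcg2, a phospholipase downstream of Fc receptors (-0.48, SD 0.07), were low too. Ctsb (-0.70, SD 0.74) and Cd163 (-0.67, SD 0.18) were also below 0 in all 4 mice, as were further list genes not named. The highest were Lgals3 (0.64, SD 1.06), Prtn3, a granule protease (0.57, SD 0.67), and S100a14 (0.62, SD 0.70), whose SDs exceed their means.

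Genes of the pan-leukocyte and B cell lists were low in the same spleens. Of the pan-leukocyte list 8 of 10 genes were below 0 in all 4 mice (median -0.46), among them Cd37 (-0.82, SD 0.28), Cd52 (-0.77, SD 0.28), Ptprc, the leukocyte common antigen CD45 (-0.50, SD 0.29), and Lcp1 (-0.48, SD 0.14). Of the B cell list all 3 genes counted were below 0 in all 4 mice, namely Ms4a1, the antigen CD20 (-1.34, SD 0.33), Cd74, the invariant chain that cathepsin S cleaves (-0.86, SD 0.39), and Cd79b (-0.41, SD 0.30). The list medians by mouse ran from -0.64 to -0.36 for pan-leukocyte and from -1.21 to -0.63 for B cell genes. They depended on the dye, with -0.14 (mutant in Cy5) and -0.83 (in Cy3) for pan-leukocyte and -0.39 and -1.32 for B cell genes. The T cell list (6 genes) had a median of 0.02 with no gene below 0 in all 4 mice. Other lists had medians of -0.34 (erythroid, 4 genes), -0.59 (exocrine pancreas, 4 genes), -0.44 (NK cell, 1 gene), 0.22 (plasma cell, 2 genes), 0.21 (microglia, 3 genes), 0.24 (hepatocyte, 7 genes) and 0.47 (neuron, 4 genes). Mouse 1 had the highest value in each of these but the erythroid list. In mice 1 to 4, exocrine pancreas had 0.305, -1.042, -0.739 and -1.169. The NK cell gene had 0.744, -1.345, -0.617 and -0.535. Plasma cell genes had 1.091, -0.325, -0.013 and 0.128, and neuron genes 0.924, 0.353, -0.002 and -0.079. The part of the cells of these lists in the values of Lyz2, Plac8 and Ctss was not tested. In whole organs, fewer cells of a type and less RNA per cell cannot be told apart.

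**Figure D4:**
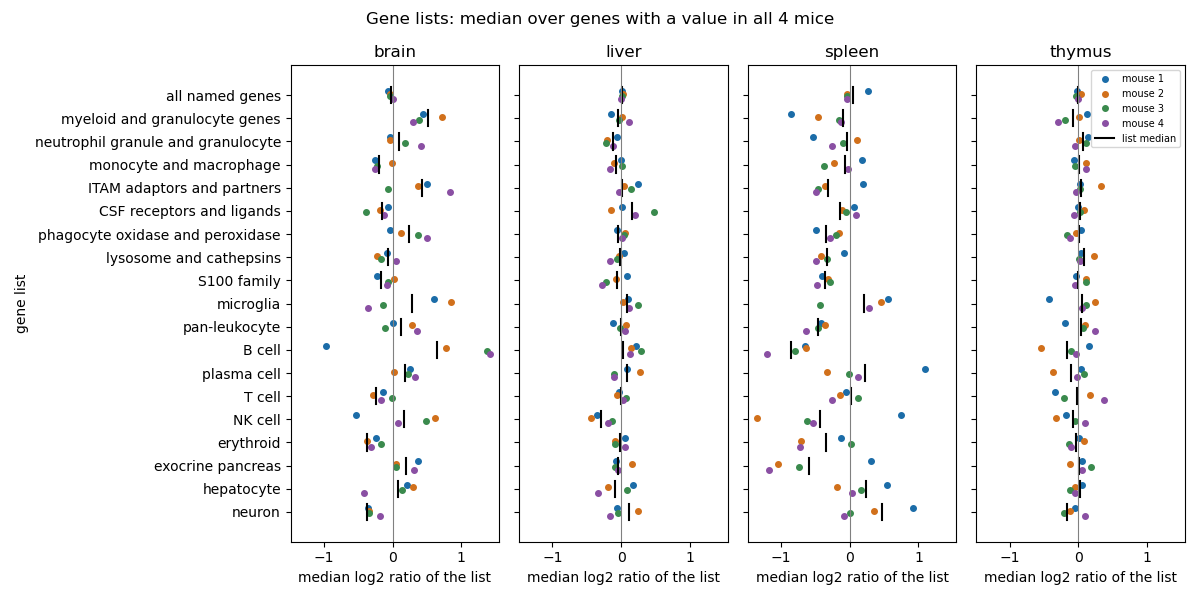
Median log2 ratio (horizontal axis) of each gene list (vertical axis) in the 4 organs, over genes with a value in all 4 mice, with 1 point per mouse and a black line at the median of the gene means. In spleen the pan-leukocyte and B cell lists lie below 0 in all 4 mice, with medians of -0.46 and -0.86. The members and the S100 family, phagocyte oxidase and peroxidase, and lysosome and cathepsins lists also lie below 0 in all 4 mice. In liver and thymus all list medians lie within 0.30 of 0.

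In brain, liver and thymus no row of the lists passed the limma test (226, 231 and 235 rows, smallest adjusted p = 0.42, 0.921 and 0.86). In thymus 7.51% of all named genes were below 0 in all 4 mice and 5.71% were above 0 in all 4. The neutrophil list had 0 of 14 genes below and 3 above 0 in all 4 mice (median 0.06). The lysosome list had 0 of 21 below and 4 above (median 0.08). Mmp8, a neutrophil collagenase, was the highest of the neutrophil list with 1.00 (SD 1.86), on 3.76 in mouse 2 alone, and Gpnmb was the highest of the macrophage list with 0.63 (SD 1.18), on 2.33 in mouse 2. As for Plac8, these are values of the lone array of that mouse.

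In liver, with 5.85% of all named genes below 0 in all 4 mice, the neutrophil list had 2 of 13 genes there (median -0.12), the macrophage list 4 of 22 (median -0.08) and the lysosome list 1 of 20 (median -0.01). Cebpe, a transcription factor of late granulocytes, was the lowest of the neutrophil list (-0.32, SD 0.23), and Siglec1, a macrophage receptor, was the highest of the macrophage list (0.42, SD 0.34). In brain, with 17.08% of all named genes below 0 in all 4 mice, the macrophage list had 5 of 14 (median -0.19), the lysosome list 5 of 20 (median -0.06), the colony-stimulating factor list 2 of 5 (median -0.15) and the microglia list 1 of 3 (median 0.28). The adaptor list had a median of 0.42 over 7 genes and its highest gene was Trem2, the receptor of microglia that signals through DAP12, with 0.49, 1.57, 0.41 and 0.95 in mice 1 to 4. The neuron list, with 6 of 8 genes below 0 in all 4 mice, had a median of -0.38, and the B cell list of 2 genes had 0.65. Their part in the brain values of the members was not tested.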

How the data were processed

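RNA of brain, liver, spleen and thymus of 4 Dll1 mutant mice was measured on cDNA arrays against wild-type pools. The authors deposited 1 log2 ratio per spot and array. Normalization, the filter on weak spots, the direction and the base of the logarithm are not given in the labels, and base 2 is taken from the paper. Signal over background is unknown, and the number of arrays limits the precision. No normalization was added. Values beyond 12 in size were dropped. Names follow a displacement of 11 places, inferred from the data, with symbols updated through Entrez IDs.

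A mouse is 1 replicate, as the mean of its 2 dye-swapped arrays in rows measured on both. The median correlation of such arrays was below 0 in brain, liver and spleen. The lone thymus array of mouse 2 was corrected, per row, by the dye effect averaged over mice 1, 3 and 4 (at least 2 of them). Rows with at least 3 mice were tested against 0 per organ, and between organs, with limma 3.58.1 in R 4.3.3, adjusted by Benjamini-Hochberg over all rows at 0.05. The fits were tested on simulated data. Organs of a mouse come from the same animal by the labels' mouse numbers. Deviations of the same mouse in 2 organs correlated at -0.080 to 0.007, so the mouse as a block is an alternative. Figures used Python 3.11.15 and matplotlib 3.10.9.

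The members and gene lists were chosen with earlier results of these data known. All member rows are named, and so are the 3 rows most like Lyz2 and Plac8. Of the list genes with the lowest or highest mean in an organ, only a part is named. The same holds for list genes below 0 in all 4 spleens. Of the lists outside the myeloid ones mostly counts and medians are given. Alternatives were leaving out each mouse, centring and scaling, other filters on values, each dye alone, a dye term, a common spread, robust moderation, names as listed and a reading as Cy5 over Cy3. The labels and the paper differ in the number of mice, age and amount of RNA, and the record and array type cited in the paper are others, so whether its samples are those analysed here is open to doubt. The pool has 4 animals by the labels' list and 6 by their protocol.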

Additional observations from a re-analysis of the deposited data

Results flagged for a closer look

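There were 3 values that stood apart from the other mice of their group by Dixon's test, among 35 groups of 4 mice checked, where chance flags about 1 in 20 groups. Lyz2 row 12301 in liver was -0.54 in mouse 1 and -0.12 to -0.08 in the other mice. Lyz2 row 17282 in thymus was -0.59 in mouse 4 and 0.56 to 0.74 in the others. Plac8 in thymus was 1.82 in mouse 2, on its lone corrected array, and -0.04 to 0.09 in the others.

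Some member rows were above 0 in every mouse with a value (at least 3) of one organ and below 0 in every such mouse of another. Of all rows, 14.6% were above 0 in this way in brain and 18.0% in spleen. Below 0 were 6.20% in liver, 13.0% in spleen and 8.08% in thymus. The share of all rows with both was not counted. For Lyz2 row 12301, brain exceeded liver by 1.26 (adjusted p = 0.579, limma) and spleen by 2.07. For Plac8, brain (3 mice) exceeded spleen by 1.93. For S100a9 row 4889, brain exceeded thymus (3 mice) by 0.70 (adjusted p = 0.457, limma), and spleen exceeded thymus by 0.26. The differences that involve spleen were not tested, because spleen chose the genes.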

How the results depend on the processing

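No member row and no row of the whole table passed in brain, liver or thymus, or between organs, under the settings run, with these exceptions in brain. With the mutant RNA in Cy3 alone 1433 rows passed, 1 of them a member, and with a common spread of the 4 organs 68 rows passed. The cause was not tested. With the mouse as replicate block, the comparisons of organs had 0 rows past the threshold, as without it. The median of the member rows in brain (0.538) ran from 0.079 without mouse 2 to 0.568 without mouse 4, was 0.104 read as Cy5 over Cy3 and 0.139 with names at the numbers as listed. In liver (-0.048) it was 0.087 with the mutant RNA in Cy5 alone and 0.288 in Cy3 alone. In spleen 4 member rows were below 0 in every mouse, and 2 read as Cy5 over Cy3, a reading that turns the sign of every Cy3 array. The count was 5 without mouse 1, with or without centring, a setting with both changes chosen after seeing the data. The thymus median moved by less than the spread of the mice under every setting run. Of single member values, 27 of 176 in brain, 15 of 176 in liver, 17 of 187 in spleen and 1 of 187 in thymus moved by more than 1 SD over the mice. The number of mice (4 per organ) and an unknown signal over background limit these values.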
